A study of Homo sapiens with 6 samples.

Results

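The elongation, release and recycling factors are the proteins that carry a ribosome through the coding sequence of an mRNA and off its end. Here they were taken as 10 genes by symbol: EEF1A1, EEF1A2, EEF1B2, EEF1D, EEF1G, EEF1E1, EEF2, ETF1, GSPT1 and ABCE1. Of these, 9 have values among the 8121 genes with translational efficiency, and the same 9 among the 9570 transcripts with ribosome occupancy. EEF1D was not analysed here.

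The data come from ribosome profiling of HEK293 cells in 3 replicates. HEK293 is a cell line derived from human embryonic kidney. Every sample carries a control siRNA according to the labels, so there is a single condition and genes can only be set against each other. Each replicate gave a library of ribosome-protected fragments (RPFs), short pieces of mRNA shielded from RNase I by a ribosome, and a library of total RNA from the same lysate, made after cycloheximide had been added to arrest ribosomes. Rows for 6 of 8 genes typical of HEK293 cells (VIM, NEFM, NEFL, LIN28B, CKB and TUBB3) are among the analysed genes, and of 10 markers of other lineages those of COL1A1 and COL3A1.

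During elongation, eEF1A with GTP brings each aminoacyl-tRNA to the ribosome, the eEF1B complex recharges eEF1A by exchanging its GDP, and eEF2 moves the ribosome on by a codon. At a stop codon, eRF1 (the product of ETF1) recognises the codon together with the GTPase eRF3a (the product of GSPT1), and the ATPase ABCE1 then splits the ribosome into its subunits. EEF1E1, despite its name, encodes a scaffold protein of the complex that holds several aminoacyl-tRNA synthetases. Several of these mRNAs, EEF1A1 and EEF2 among them, belong to the class with a terminal oligopyrimidine (TOP) tract at the 5′ end, which cells use to adjust the synthesis of the translation machinery.

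The 9 mRNAs are transcribed from separate loci (GRCh37): EEF1A1 from chr6:74199031-74235310 (minus strand), EEF1A2 from chr20:62119366-62130592 (minus), EEF1B2 from chr2:207024309-207027652 (plus), EEF1G from chr11:62327068-62341558 (minus), EEF1E1 from chr6:8073593-8102792 (minus), EEF2 from chr19:3976054-3985461 (minus), ETF1 from chr5:137841784-137878925 (minus), GSPT1 from chr16:11961985-12009939 (minus) and ABCE1 from chr4:146019440-146050676 (plus). Their coding sequences (CDS) run from 175 codons for EEF1E1 to 859 codons for EEF2, stop codon included.

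Sequences that the results below turn on are shown first. Each is 30 nt of the sense strand with the codon that the results refer to in capitals, and it begins 13 nt before that codon, after the offset of 13 nt that the authors applied to place a fragment.
EEF1A2 codon 374, exon 7, chr20:62120399-62120428: ctgcaagtttgcgGAGctgaaggagaagat
EEF1A1 codon 374, exon 7, chr6:74227881-74227910: atgcaagtttgctGAGctgaaggaaaagat
EEF1A2 codon 131, exon 4, chr20:62126372-62126401: catctccaagaatGGGcagacgcgggagca
EEF1A1 codon 131, exon 4, chr6:74228869-74228898: tatctccaagaatGGGcagacccgagagca
EEF1A1 codon 67, exon 3, chr6:74229169-74229198: actgaaagctgagCGTgaacgtggtatcac
EEF1A1 codon 1, exon 2, chr6:74229733-74229762: cctaaaagccaaaATGggaaaggaaaagac
EEF2 codon 855, exon 15, chr19:3976550-3976579: cctggacaacttcCTGgacaaattgtaggc
ABCE1 codon 599, exon 18, chr4:146048707-146048736: ctttttcttggatGATtagactgactctga
All lie in coding exons, and the windows at EEF1A1 codon 1, EEF2 codon 855 and ABCE1 codon 599 reach past the start or stop codon. The 2 pairs of EEF1A windows are shown because they hold most of the EEF1A2 signal, the other EEF1A1 windows because they are the highest codons of the most deeply covered factor, and the last 2 because they lie at the end of the CDS.

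Translational efficiency, the deposited ratio of RPFs to total RNA for a gene, was higher than the median of all genes for 8 of the 9 factors. The median gene had a translational efficiency of 0.382, 0.380 and 0.388 in replicates 1, 2 and 3. In the same test (limma on log2(value + 0.01), FDR 0.05 over all genes) 44.7% of all genes were higher and 44.6% were lower than the median (89.3% in either direction), so that a call by itself is common. The median of the 9 factors was 1.32, against 0.385 over all genes.

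EEF1A1, which delivers aminoacyl-tRNA, had translational efficiencies of 6.27, 6.82 and 6.13 in replicates 1, 2 and 3. This is 16.3-fold above the median gene (log2 difference 4.03 ± 0.06 SE, limma adjusted p = 1.09e-06). EEF1A1 stood at the 98.3 percentile, with a spread between replicates that was small beside its distance from the median.

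EEF1A2, the paralogue known from muscle and neurons, had 0.278, 0.328 and 0.582. Replicate 3 was above the median gene and replicates 1 and 2 were below it. The log2 difference was -0.02 ± 0.21 SE (limma adjusted p = 0.915), and without replicate 3 EEF1A2 passed the test as lower, at -0.32 (limma adjusted p = 0.0224). Its SD between replicates, 0.54 on the log2 scale, was at the 99.1 percentile, where the median gene had 0.10.

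EEF1B2, the nucleotide exchange subunit that works on eEF1A, had 148, 124 and 213. It was the highest of the factors and the 7th highest of all genes, 400-fold above the median gene on the log2(value + 0.01) scale (log2 difference 8.65 ± 0.16 SE, limma adjusted p = 1.46e-06). All 3 replicates were above 100, as were the means of only 10 genes in all. The values differed 1.72-fold between replicates 2 and 3. EEF1B2 shares 132 exonic bases with the small nucleolar RNA gene SNORA41 on the same strand, 6.89% of its exonic length, and 84.1% of its codons lie in a 28-nt window that also occurs in another gene. The part of either in the ratio was not tested.

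EEF1G, the structural subunit of the exchange complex, had 1.21, 1.39 and 1.36, or 3.38-fold above the median gene (log2 difference 1.76 ± 0.06 SE, limma adjusted p = 6.89e-06). Of its exonic bases, 99.7% also belong to an annotated readthrough gene of the same strand, ENSG00000255508, and every CDS window of 28 nt occurs in another gene. Counts for EEF1G are uncertain for this reason. EEF1E1, the synthetase scaffold, had 1.24, 1.21 and 1.30 (log2 difference 1.68 ± 0.05 SE, limma adjusted p = 4.51e-06). It shares 18.8% of its exonic bases with the readthrough gene EEF1E1-BLOC1S5, and 80.0% of its codons have a 28-nt window that occurs in another gene.

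EEF2, the translocase, had 1.53, 1.61 and 1.62 (log2 difference 2.02 ± 0.05 SE, limma adjusted p = 2.65e-06). None of its 859 CDS windows of 28 nt occurs in another gene. ABCE1, the recycling ATPase, had 1.56, 1.48 and 1.44 (log2 difference 1.93 ± 0.05 SE, limma adjusted p = 3.32e-06). The replicates of EEF2 and ABCE1 overlapped. In ABCE1, 50.0% of the codons have a window that occurs in another gene.

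The release factors were the least elevated of the 8. GSPT1 had 0.658, 0.700 and 0.688 (log2 difference 0.82 ± 0.05 SE, limma adjusted p = 4.77e-05). ETF1 had 0.654, 0.680 and 0.704 (log2 difference 0.81 ± 0.05 SE, limma adjusted p = 5.35e-05). The translational efficiencies of these mRNAs, 0.682 ± 0.021 and 0.679 ± 0.025 (SD, n = 3), were apart by less than the spread between replicates. They ranked 2448 and 2460 of 8121 genes, with other genes between them. In mean ribosome occupancy of the CDS, given below, they were not alike (0.218 for GSPT1 and 0.0769 for ETF1).

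**Figure D1:**
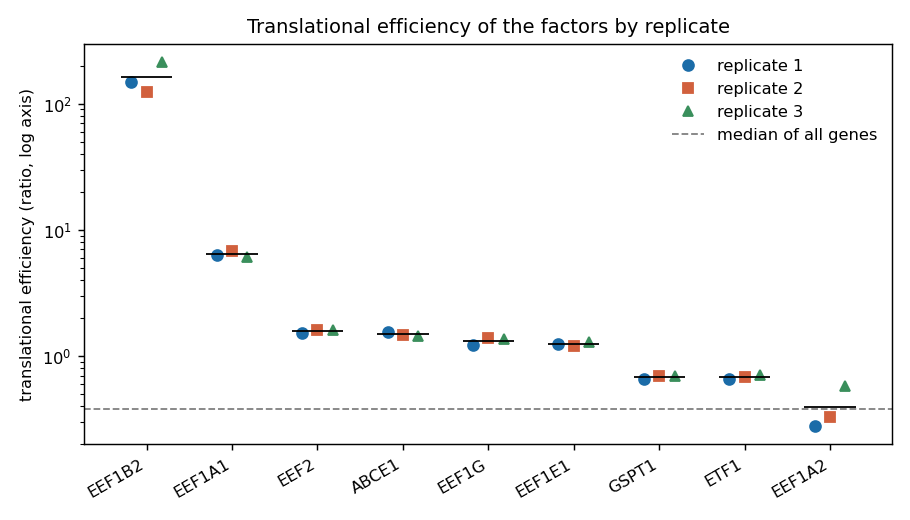
Translational efficiency (ratio of RPFs to total RNA, log axis) of each factor in replicates 1, 2 and 3, with the mean of the 3 as a horizontal bar and the median of all genes as a dashed line. EEF1B2 lies above 100 in every replicate, the replicates of GSPT1 and ETF1 overlap near 0.68, and those of EEF1A2 fall on both sides of the median.

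In order of their means, the factors ran EEF1B2, EEF1A1, EEF2, ABCE1, EEF1G, EEF1E1, GSPT1, ETF1 and EEF1A2. Replicate ranges overlapped for EEF2 and ABCE1, for EEF1G and EEF1E1, and for GSPT1 and ETF1. The other neighbours did not overlap, with the narrowest gap between ABCE1 (lowest value 1.44) and EEF1G (highest value 1.39). Over all genes the SD of gene means was 1.56 on the log2 scale, and the median SD between replicates was 0.10. How many pairs of other genes lack overlap was not counted, so the gaps are not shown to be particular to these factors. An exact permutation test of 3 against 3 values cannot go below p = 0.1, so none was made.

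Genes with the most similar translational efficiency over the 3 replicates were H2AFZ, NUDCD2 and RPS27L for EEF1A1 (Euclidean distances of 0.045, 0.059 and 0.084 on the log2 scale). They were STAM2, NDUFV2 and TERF1 for EEF2 (0.041, 0.053 and 0.053), and GOT1, NIFK and RP11-884K10.5 for ABCE1 (0.046, 0.066 and 0.067).

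Among groups of like function, 71 of 76 ribosomal protein genes were higher than the median gene and 4 were lower, with a median translational efficiency of 1.71. Of 40 initiation factor genes, taken by symbol, 29 were higher and 11 lower (median 0.869). They include EIF2D, which is also counted among the recycling genes below. Of 18 cytosolic aminoacyl-tRNA synthetases 11 were higher and 6 lower (median 0.620). The median of the 9 factors, 1.32, lay between the ribosomal proteins and the initiation factors. These counts describe the groups and were not tested against each other.

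Genes that modify the factors or act beside them were spread over both sides of the median. Of 52 such genes, 44 were measured. Of these, 20 were higher (45.5%, close to the 44.7% of all genes), 18 were lower and 6 did not pass the test, and the median was 0.415. The highest were DENR (2.19 ± 0.027, SD, n = 3) and MCTS1 (1.48 ± 0.069), partners in removing tRNA from the small subunit after termination, with GSPT2 (1.52 ± 0.284), which encodes the second eRF3 protein, PELO (1.31 ± 0.101), which rescues stalled ribosomes, and DPH3 (1.29 ± 0.080), which takes part in diphthamide synthesis. The lowest were DPH2 (0.0549 ± 0.0073), DHPS (0.0864 ± 0.010), SECISBP2 (0.0899 ± 0.0027), GTPBP2 (0.0935 ± 0.011) and DPH1 (0.0949 ± 0.0052). SECISBP2 binds the RNA element for selenocysteine insertion and GTPBP2 is a GTPase of ribosome rescue.

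Counts by role rest on 2 to 8 genes each and were not tested. Beside them, 44.7% of all genes were higher and 44.6% lower, so that calls on a few genes set no role apart. The genes for diphthamide, a modified histidine found on eEF2, were split: 4 of 7 were higher and 3 lower, from 0.0549 for DPH2 to 1.29 for DPH3. The enzymes that make hypusine on eIF5A, DHPS and DOHH, were both lower (0.0864 and 0.292), and their substrate genes EIF5A and EIF5A2 were both higher (1.23 and 0.743). Of 7 genes for methylation of the factors, 1 was higher, 3 were lower and 3 did not pass the test. Of 8 mitochondrial elongation, release and recycling genes, 3 were higher, 3 lower and 2 did not pass. Of 3 genes that recycle the small subunit, DENR and MCTS1 were higher and EIF2D, which has the same role, was lower at 0.113 ± 0.011 (SD, n = 3). Of 8 genes of ribosome rescue and quality control, 3 were higher, 4 lower and 1 did not pass. The 2 measured non-synthetase scaffolds that join EEF1E1 in its complex, AIMP1 (1.21 ± 0.046) and AIMP2 (0.654 ± 0.059), were both higher.

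Ribosome occupancy gave a second view of the same mRNAs. It holds, for each codon of the most abundant transcript of a gene, in-frame RPFs normalised for library size and divided by the transcript's abundance in total RNA (TPM). The replicates are combined in the deposited values. Within a transcript the values are sums of whole multiples of 3 steps, the worth of 1 read in each replicate. Solving for them gave the reads per codon and replicate for 8 factors in full, and for 459 of the 463 codons of EEF1A1. These replicates are given in order of read number, because the steps carry no replicate number.

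The 9 factors held 1871635 in-frame CDS reads, 2.99% of the 62677360 estimated over the 9456 transcripts whose steps were found. For that total, high values were divided by an average worth per read and not solved exactly. EEF1A1 alone had 1215514 (1.94%), EEF2 310418, EEF1G 140324 and EEF1B2 75295. GSPT1 had 44560, ABCE1 42099, ETF1 27411, EEF1E1 9843 and EEF1A2 6171.

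Since a step is inversely proportional to TPM, steps also gave the mRNA level of each factor per unit length, relative to the median transcript. EEF1A1 was at 210 times the median transcript, EEF1G at 143, EEF2 at 107 and EEF1B2 at 60.4 times. All 4 were above the 99.4 percentile of 9258 transcripts. ETF1 (9.37 times), ABCE1 (8.76 times), EEF1E1 (5.81 times) and GSPT1 (3.60 times) followed. EEF1A2 was below the median transcript, at 0.566 times, and the EEF1A1 mRNA was 370 times as abundant. Of the termination partners, the ETF1 mRNA was 2.61 times as abundant as that of GSPT1. These levels rest on combined values and have no replicate error.

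Mean CDS occupancy, which is RPFs per codon and per mRNA, ordered the factors differently from translational efficiency. EEF1A2 was highest (0.264), ahead of GSPT1 (0.218), EEF1A1 (0.140), EEF1E1 (0.108), ABCE1 (0.0896), ETF1 (0.0769), EEF1B2 (0.0613), EEF2 (0.0380) and EEF1G (0.0250). The median of 9351 transcripts with a CDS over 300 nt was 0.0442, so EEF2 and EEF1G were below it. EEF1B2, 400-fold above the median in translational efficiency, was 1.39-fold above it in occupancy, and over its 36 codons with no shared window the mean was 0.0414. GSPT1 went the other way, at the 69.9 percentile in translational efficiency and the 96.2 percentile in occupancy. The formula behind the translational efficiency ratio was not stated, and what sets the measures apart was not tested.

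**Figure D2:**
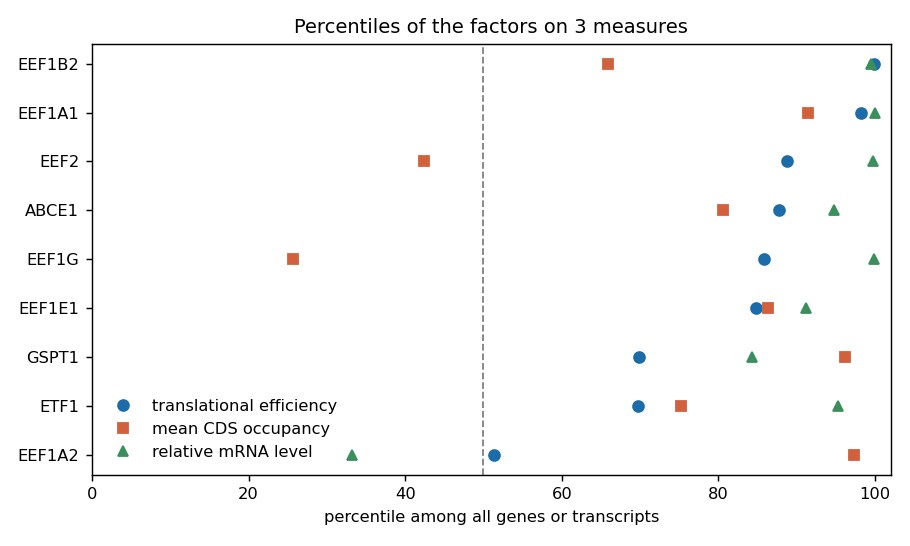
Percentile of each factor (rows, in order of translational efficiency) among all genes or transcripts for translational efficiency (circles), mean CDS occupancy (squares) and relative mRNA level (triangles), with the 50 percentile dashed. EEF1G and EEF2 combine a high mRNA level with occupancy below the median transcript, and EEF1A2 combines a low mRNA level with high occupancy.

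More than any other factor, EEF1A2 had its occupancy in single codons. Codon 374 had an occupancy of 46.3 and codon 131 had 27.1, against 2.76 at the next highest codon, and together they held 59.8% of the CDS reads (57.4%, 62.6% and 60.1% in the 3 replicates). Without them the mean was 0.106, still above the median transcript. Without the 2 highest codons of each factor, GSPT1 (0.208) and EEF1A1 (0.133) were above EEF1A2, and EEF1E1 (0.0970) was below it.

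The windows of these codons differ from EEF1A1 at 3 of the 30 positions printed above and at 2 of the 28 positions that begin 12 nt before the codon. The windows of 28 nt counted throughout begin there. Whether the offset was counted from 0 or from 1 was not stated. By comparison, the coding sequences are identical at 78.0% of 1386 nt. The numbers of reads at these codons were close in the paralogues. At codon 374 EEF1A1 had 994, 812 and 581 reads in the 3 replicates and EEF1A2 had 962, 790 and 564. At codon 131 EEF1A1 had 568, 552 and 296 reads and EEF1A2 had 553, 535 and 286. The ratio of EEF1A2 to EEF1A1 reads was between 0.966 and 0.974 in all 6 cases, and 0.970 over both codons. At the 451 matching codons with more than 2 differences in the window EEF1A2 had 2311 reads and EEF1A1 had 1202469, a ratio of 0.0019, where the mRNA levels differed 370-fold. Among 9 further codons with 2 differences, codon 47 had 131, 56 and 57 reads in EEF1A1 and 78, 27 and 36 in EEF1A2, a ratio of 0.578. Over the other 8 the ratio was 0.0032. No window of EEF1A2 occurs without a difference in another gene. Whether the reads at codons 131 and 374 came from EEF1A1 mRNA was not tested, and the occupancy of EEF1A2 is uncertain there.

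**Figure D3:**
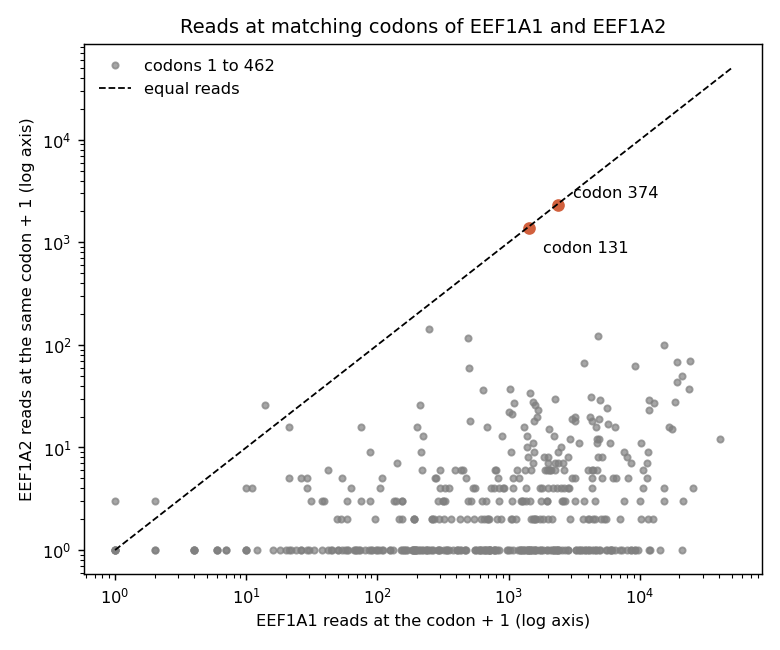
In-frame reads of EEF1A1 (x axis) and EEF1A2 (y axis) at the same codon number for codons 1 to 462, both as reads + 1 on log axes, with equality dashed. Codons 374 and 131 lie close to the line of equal reads and nearly all other codons lie far below it.

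EEF1A1 shows what a deeply covered factor looks like. Its highest codon, 67, had an occupancy of 2.19, 15.6 times the mean of the CDS and 3.37% of its total. The start codon was second at 1.36, 9.71 times the mean, which was at the 93.3 percentile of transcripts. The start codon was above the mean in EEF2 (2.33 times) and EEF1G (1.69 times) as well, and was at 0 in EEF1E1, ETF1 and GSPT1. Only 7 of 463 EEF1A1 codons were at 0 (1.51%). Of its codons 97.2% have a window that occurs in another gene, most often the pseudogene EEF1A1P5, and the 13 codons without had a mean of 0.314 against 0.135 for the rest.

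In several factors the ends of the CDS were unequal. EEF1A1 had a mean occupancy of 0.247 over the first 75 codons and 0.0710 over the last 75, a 3.48-fold difference. The first 75 codons held 28.6% of its reads, where an even spread would give 16.2%. EEF2 was also higher at its start, at 0.0574 against 0.0265, and at 0.0537 against 0.0102 without the 5 codons next to start and stop. In its 3 replicates the first 75 codons held 13.3%, 12.9% and 13.4% of the reads, and the last 75 held 5.97%, 5.38% and 6.95%, where an even spread gives 8.73%. The values of the 3 EEF2 replicates did not overlap between the ends. How many other transcripts also lack overlap was not counted. The log2 ratio of first to last codons was at the 82.7 percentile of all transcripts in EEF2 and at the 92 percentile in EEF1A1.

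The reverse held for GSPT1, EEF1B2, ETF1 and ABCE1. In EEF1B2 the first 75 codons held 17.7%, 16.4% and 20.0% of reads and the last 75 held 35.0%, 36.8% and 33.3%. With windows of 100 codons the EEF1B2 means were closer, at 0.0483 and 0.0597. In ABCE1 the first 75 held 11.4%, 10.4% and 12.7% and the last 75 held 18.2%, 16.8% and 16.0%. Without the 5 codons next to start and stop the ABCE1 means were 0.0861 and 0.0984. The first window of ETF1 takes in the 19 codons at 0 described below. EEF1G was even (0.0234 and 0.0236), and a single codon, 10, with 32.4 times the mean, made up its level at the start: without the highest codon of each window the means were 0.0128 and 0.0200. EEF1E1 had 0.110 and 0.0788, and with windows of 50 codons 0.0802 and 0.0838. EEF1A2 had 0.196 and 0.0674 and turned with windows of 100 codons, which take in codon 374. Over all transcripts the median log2 ratio of the ends was -0.02. Among them the ratio of GSPT1 was at the 3.29 percentile, that of EEF1B2 at 22.9, that of ETF1 at 30.8 and that of ABCE1 at 33. Of these only GSPT1 was near the low end of all transcripts.

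**Figure D4:**
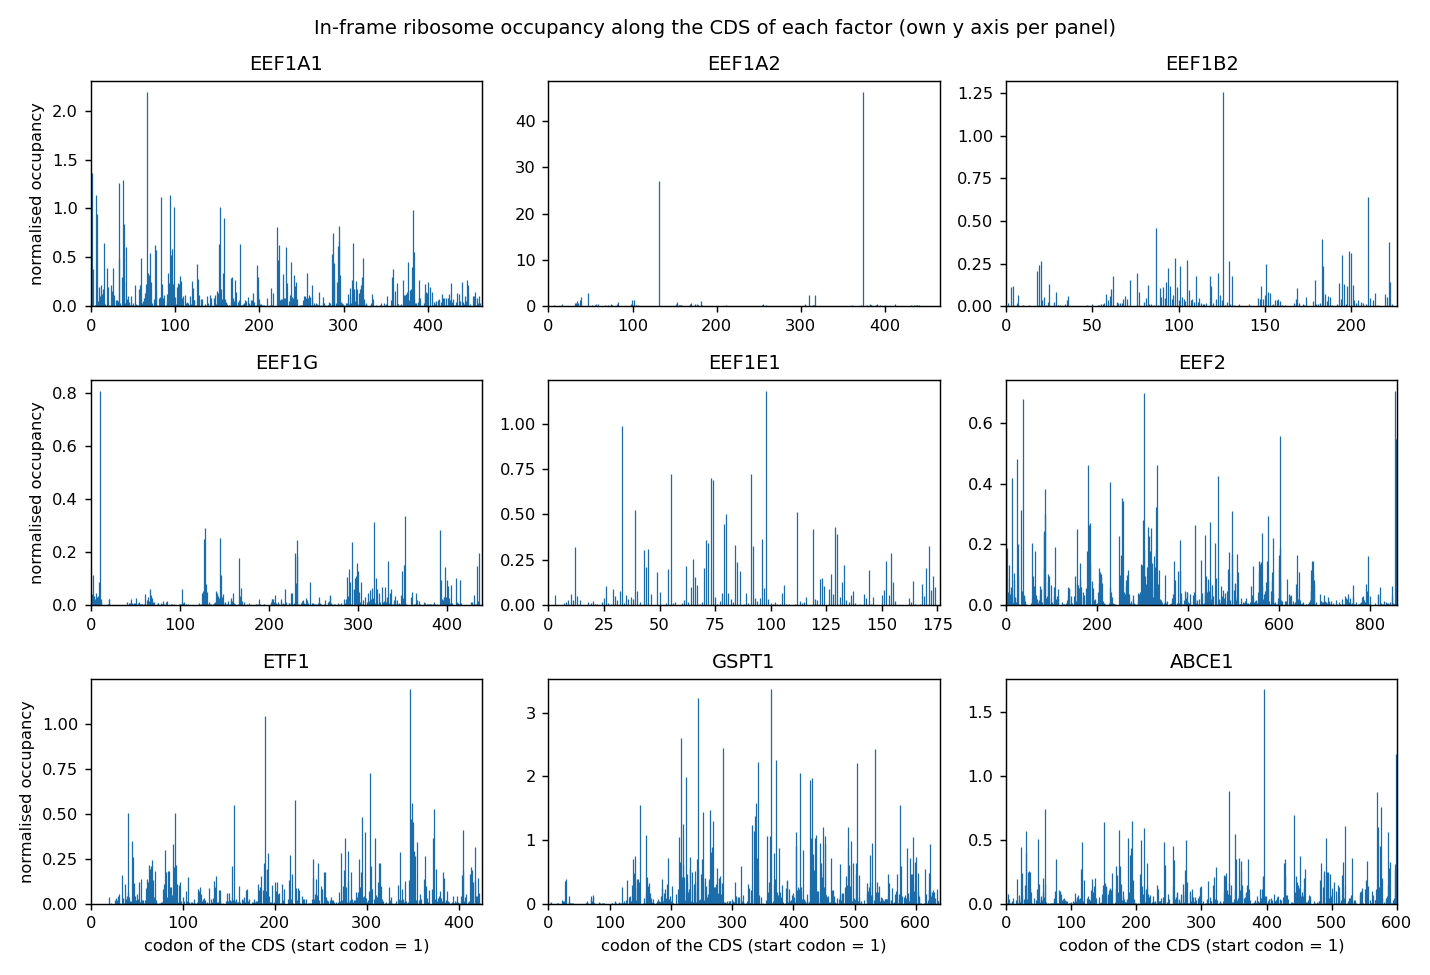
In-frame normalised occupancy (y axis, scaled for each panel) at every codon of the CDS (x axis, start codon = 1) of the 9 factors, replicates combined. EEF1A2 is dominated by codons 131 and 374, GSPT1 is nearly empty over its first 117 codons, and EEF2 and ABCE1 each have a tall value at the very end.

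GSPT1 had little occupancy over the first part of its annotated CDS. The 638-codon CDS used by the authors has a shorter form of 500 codons in GENCODE that starts at codon 139. Before that codon the mean was 0.0304 and from it onwards 0.270, an 8.86-fold difference, and the medians were 0.0026 and 0.0877. Of the reads, 3.16%, 3.48% and 2.36% fell before codon 139 in the 3 replicates. Of the 138 codons before, 47.1% were at 0, against 8.20% of the 500 after. The GC content was 72.5% before and 42.6% after, and its part in the difference was not tested. The transcripts with the shorter CDS share their sequence with this one from codon 118 or codon 132 on, so the codons just before 139, such as codon 138 with 0.699, are also in the 5′UTR of the shorter form. Over the 117 codons before any shared codon the mean was 0.0172, with 665 reads (1.51%, 1.78% and 1.02% of the CDS in the 3 replicates). The highest of these was codon 28 with 51, 61 and 16 reads.

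The 5′UTR of GSPT1 carried in-frame reads at codons 58 and 52 before the start, with 74 reads (31, 20 and 23 in the 3 replicates) and 67 reads (28, 30 and 9). These codons held 34.9% and 31.6% of its 212 in-frame 5′UTR reads. The reference 5′UTR has 0 in-frame stop codons and 0 in-frame ATG codons. Whether these reads belong to the reading frame of the CDS was not tested.

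ETF1 had no read over its first 19 codons or over the 46 in-frame codons of its 5′UTR, in any replicate. The first value above 0 was 0.0390 at codon 20. A count of 0 among 27411 CDS reads allows a share of up to 0.0109% (3 reads, counting error only). The transcript in the table has a CDS of 424 codons, which joins the sequence of the 438-codon transcript of ETF1 so that codon 16 is the first to be wholly shared. Codon 20 is the first whose 28-nt window is wholly shared, so all 19 codons at 0 have windows that reach into the separate 5′ end of this transcript.

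ABCE1 had 368 in-frame 5′UTR reads, mainly at codons 13, 34 and 8 before the start, with 84, 82 and 57 reads. At codon 13 these were 35, 24 and 25 reads in the 3 replicates, and at codon 34 they were 28, 36 and 18. Relative to the CDS its 5′UTR occupancy was 3.67%, and that of GSPT1 3.87%, against 2.88% in the median transcript. Without the highest codon of each region they were 2.91% and 2.57%. The other factors were lower: 1.61% for EEF1A1, 1.47% for EEF1E1, 0.999% for EEF2, 0.894% for EEF1B2, 0.242% for EEF1G, 0.139% for EEF1A2 (2 reads) and 0 for ETF1. In EEF1B2 33.0% of 103 such reads lay at the codon next to the start, and without the 5 codons there its level was 0.191%.

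**Figure D5:**
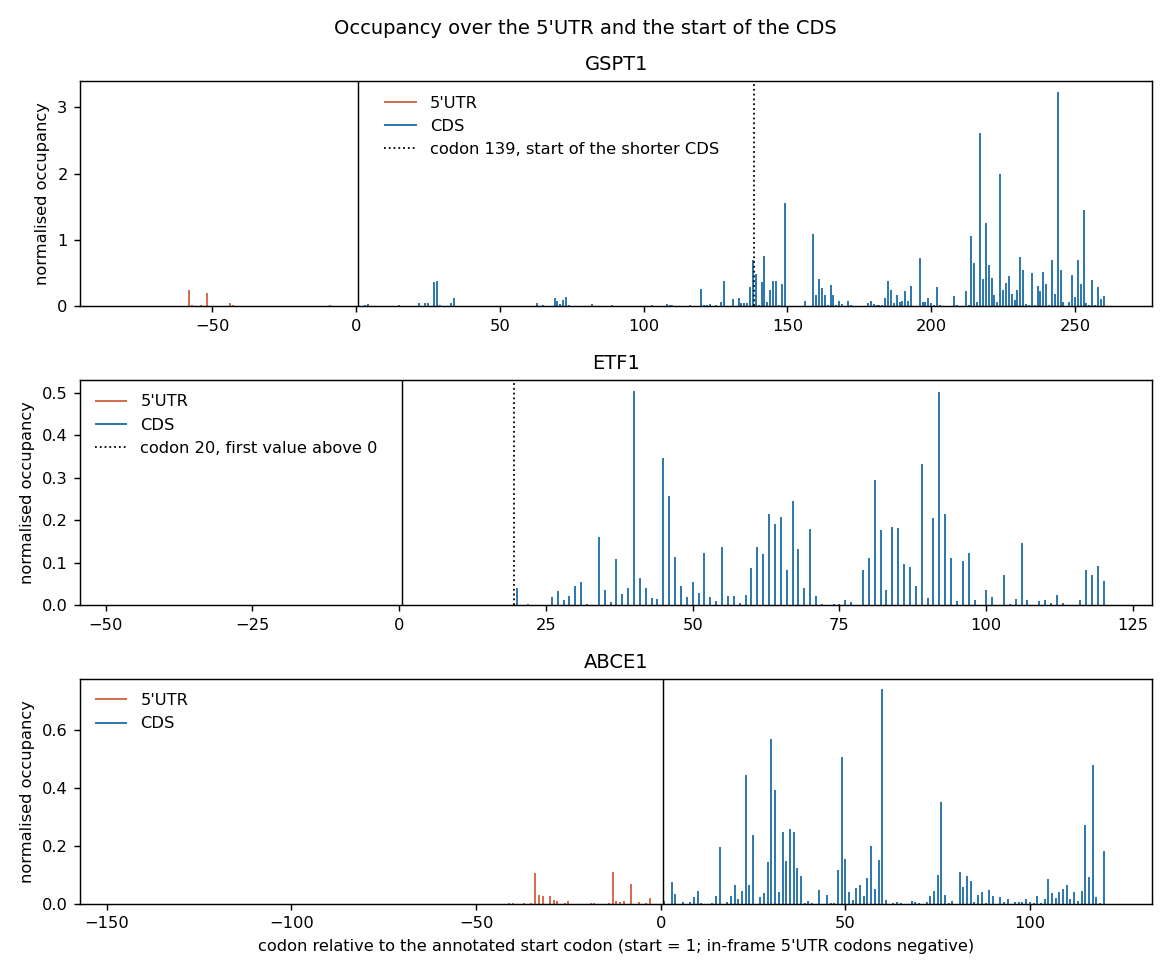
Normalised occupancy (y axis) of GSPT1, ETF1 and ABCE1 at each in-frame codon of the 5′UTR (orange, negative) and the first part of the CDS (blue) on the x axis, with the start codon at 1. GSPT1 is already at 0.699 at codon 138, before the shorter CDS starts at codon 139. ETF1 begins at codon 20, and ABCE1 has 5′UTR values at codons 34, 13 and 8 before its start.

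At the end of the CDS, EEF2 and ABCE1 had local maxima. In EEF2 the highest codon of the whole CDS was 855, 4 codons before the stop codon, at 0.706 (18.6 times the mean), and codon 856 had 0.547. Codons 855 and 856 held 3.76%, 2.91% and 4.90% of the reads in the 3 replicates. Other EEF2 codons came close, with 0.699 at codon 304 and 0.677 at codon 36, and codon 855 was the highest in only 1 of the 3 replicates. In ABCE1 the last sense codon, 599, had 1.17, or 13.1 times the mean, second to codon 396 at 1.67. Its reads were 567, 245 and 162 in the 3 replicates, or 3.12%, 1.69% and 1.71% of the CDS. The level at the last sense codon was at the 99.2 percentile of all transcripts, whereas it was below the mean in the other 8 factors. The stop codon itself was at 0 in 94.8% of transcripts. Among the factors it was above 0 only in ABCE1 and EEF1B2.

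Past the stop codon there were few reads. EEF1E1 had the highest level of the factors relative to its CDS, 0.430%, at the 87.7 percentile, where the median transcript had 0.0166%. All 44 of its reads (20, 19 and 5) lay in the first 30 codons of the 3′UTR. EEF1A1 had 482 reads, or 0.0263% relative to the CDS, and 366 of them lay in the first 50 codons. The other 7 factors had between 0 (EEF1A2) and 15 (EEF2) reads.

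The highest codon of a factor held from 2.16% (EEF2) to 9.08% (EEF1B2) of its CDS occupancy, apart from the 37.9% in EEF1A2. The median transcript had 4.86%. Of the 8 factors whose reads were solved in full, EEF1A2, EEF1B2 and EEF1G had the same highest codon in all 3 replicates. In EEF1B2 it was codon 126 with 2454, 2718 and 1536 reads, and in EEF1G codon 10 with 4491, 2739 and 2876.

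The 5′ ends of the genes were searched for a pyrimidine run, a C followed by at least 4 bases that are C or T, in RefSeq promoters of GRCh38.p14. The sense strand was read, and 8 of the 10 genes had an entry. EEF1A1 and EEF2 have a run of 7 that begins at the annotated start itself, in capitals.
EEF1A1, chr6:73521013-73521042: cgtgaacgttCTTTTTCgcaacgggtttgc
EEF2, chr19:3985444-3985473: cgtcagcgttCTCTTCCgccgtcgtcgccg
EEF1G and ETF1 have a run only at the upstream edge of the window of 20 bases to either side, and EEF1B2, EEF1E1, GSPT1 and ABCE1 have none there. Of 35116 promoters 47.9% have such a run within 20 bases, and 12.6% within 5 bases. EEF1A1 and EEF2 were at 98.3 and 88.8 percentile in translational efficiency, and EEF1B2, with no run in this window, at 99.9. A relation between the run and translational efficiency was not tested. The search covered annotated starts only, so the absence of a run there does not mean that an mRNA lacks a TOP tract.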

How the data were processed

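The authors trimmed reads with cutadapt (version 1.16 per the labels' notes), removed PCR duplicates and rRNA and tRNA reads, aligned RPFs of 28 to 30 nt to the hg19 transcriptome with Bowtie (1.1.2) and used an offset of 13 nt. For total RNA the methods name Hisat2 and the submitters' notes TopHat2 (2.1.1), with HTSeq (0.9.1). The deposited translational efficiency is a linear ratio for each replicate. The deposited occupancy is RPF signal divided by TPM, with the replicates combined. No column of per-sample values was left unmapped.

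Translational efficiency was tested with limma 3.58.1 (R 4.3.3, two-sided) on log2(ratio + 0.01) less the overall median, and p-values were adjusted by Benjamini-Hochberg over 8121 genes. Tested on simulated data for this comparison over 8121 genes, 89.5% of 200 genes moved by 1 (log2) were called, with 15 unmoved genes. All unmoved genes were simulated at the median with their own SD between replicates. Real gene means were spread with an SD of 1.56 (log2), so these rates do not carry over to the shares called here. p-values measure the spread between these samples, which may be technical. Reads were solved exactly from occupancy (checked on 983 values with known reads, of which 978 were solved, all rightly), and intervals on them would cover counting error only. Replicate numbers pair RPFs and total RNA of 1 lysate inside the ratio.

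Sequences come from GRCh37 with GENCODE annotation, and promoters from RefSeq. A codon counted as shared where its 28-nt window, from 12 nt before the codon, occurs in a transcript of another gene. All 10 factors are named. Of the other pathway genes, the 5 highest and 5 lowest are named, with others in the account by role, chosen after their values were seen. For EEF1A1, EEF2 and ABCE1 the 3 nearest genes are named. The members and lists were chosen with earlier results of these data known.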

Additional observations from a re-analysis of the deposited data

How the results depend on the processing

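The 8 factors above the median gene stayed above it, past the limma threshold, under all 8 alternatives of the translational efficiency fit (64 of 64 values). The median log2 difference of the 9 factors fell from 1.76 to 1.56 with a pseudocount of 0.1. With the replicate block, which removes each replicate's own median, 8 factors were again higher and EEF1A2 had -0.02. The block changed no other call of a factor, and it gave 21 in place of 20 higher pathway genes. Leaving out a replicate gave EEF1A2 a log2 difference of -0.32 to 0.18 (0.18 without replicate 1, 0.06 without replicate 2), and the number of factors lower than the median ranged from 0 to 1.

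Between the first and last codons, the log2 difference of EEF1A2 became -1.51 with windows of 100 codons. That of EEF1E1 became -0.06 with windows of 50 codons and -0.22 with the median over codons. That of EEF1G, close to 0, became 0.04 without the 5 codons next to start and stop and 0.01 with the median over codons. That of EEF2 rose from 1.12 to 2.40 without the 5 codons next to start and stop and to 3.20 with the median over codons. A pyrimidine run was found at 2 genes within 5 bases, against 4 within 20. The causes of these changes were not tested. Without the first 15 and last 5 codons the highest codon was 353 in EEF1G and 304 in EEF2. Chosen after seeing the data, the median over codons gave a 33.6-fold difference in GSPT1 from codon 139.

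Occupancy has no replicate error beyond the recovered reads, and depth limits EEF1A2 most, with 6171 CDS reads of which 3690 lie at 2 codons.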
